A study of Mus musculus with 4 samples.

Results

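Interferon response genes, 40 in all and listed by symbol, were followed in mouse CD4 T cells sorted from the lamina propria of the large intestine by whether they express the chemoattractant receptor gene Gpr15. Each gene was read from its probe set of highest mean. Of these, 38 had a probe set annotated to a single gene, and 32 of the 38 were brighter than a limit for dim genes (a signal of about 27.3, the level below which 40% of all probe sets lie). Isg15 and Ifi44 had no probe set with a single symbol and were not analysed here. Dhx58, Oasl1, Oasl2, Usp18, Mx2 and Bst2 were dim. In the whole series 18193 genes were represented and 12252 were tested.

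Cells were sorted after the tissue had been digested with collagenase. All mice were of a mixed 129/B6 background and heterozygous for a green fluorescent protein (GFP) knock-in at Gpr15, so the GFP-negative and the GFP-positive cells both came from animals with 1 altered copy of that gene. Each of the 2 sorted groups was measured on 2 arrays, numbered replicate 1 and replicate 2, and the labels give neither the age of the mice nor how many of them contributed to a sample. The p-values therefore measure the spread between these samples, which may be in part technical. GFP stood in for the receptor: Gpr15 itself read 146 and 162 in GFP-negative cells and 619 and 729 in GFP-positive cells, and here and below the values are given in the order replicate 1, replicate 2. Its log2 difference was 2.02 (95% interval 1.48 to 2.56), with a limma adjusted p of 0.0829. The sample labels call both fractions CD4+ where the series text once writes CD4- for the negative one, and Cd4 read 501 and 587 against 540 and 533.

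Interferons are secreted proteins that warn cells of infection. Type I interferons signal through the receptor chains Ifnar1 and Ifnar2 to a complex that holds Stat2 and Irf9 and binds a DNA element built from GAAA repeats. Interferon gamma, which T cells themselves secrete, signals through Ifngr1 and Ifngr2 and acts on genes through a spaced TTC and GAA element. The genes switched on in this way sense foreign nucleic acids, block viral replication, attack vacuoles that hold microbes and supply peptides for antigen presentation. In the gut, resting levels of such genes are known to be held up by the microbiota.

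Gbp3, a guanylate-binding GTPase of defence inside the cell, averaged 1170 in the GFP-positive and 437 in the GFP-negative fraction. Of the 32 tested members it was the 1 with a difference of at least 2-fold and no overlap of the groups. Among all tested genes 3.4% were higher in that way. The other 31 tested members lay between -0.83 and 0.67 on the log2 scale. Most differences were negative, at 24 of all 32 tested members against 8 positive ones that include Gbp3, with a median of -0.19. Over all 12252 tested genes the median was 0.07, and 42.3% of differences were negative. Median scaling of the arrays moved these shares to 27 of 32 members (84.4%) and 66.8% of all genes. All log2 differences are GFP-positive minus GFP-negative on a log2(signal + 16) scale, which understates the change of dim genes.

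No member passed limma's test after Benjamini-Hochberg adjustment over all tested genes, and the smallest adjusted p among the members was 0.167, for Gbp3. In the same fit 4 genes, or 0.0326% of all genes, were called. At an unadjusted p under 0.05, 2 members were higher (Gbp3 and Eif2ak2), beside 10.2% of all genes, and 1 was lower (Rtp4), beside 4.37%. After median scaling these were 1 higher and 7 lower, beside 3.999% and 13.9% of all genes. By position alone, 10 of the 32 members had both GFP-positive arrays below both GFP-negative arrays, where 18.7% of all genes did. Another 4 members had them above, where 28.7% of all genes did. Median scaling gave 17 below and 2 above, beside 40.1% and 13.2% of all genes, and quantile normalization 14 and 3, beside 21.2% and 23.1%. At 2-fold or more without overlap there were 1 higher and 0 lower members, beside 3.4% and 1.31% of all genes. In RNA of whole sorted fractions, fewer cells that carry a transcript and less of it per cell cannot be told apart.

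**Figure D1:**
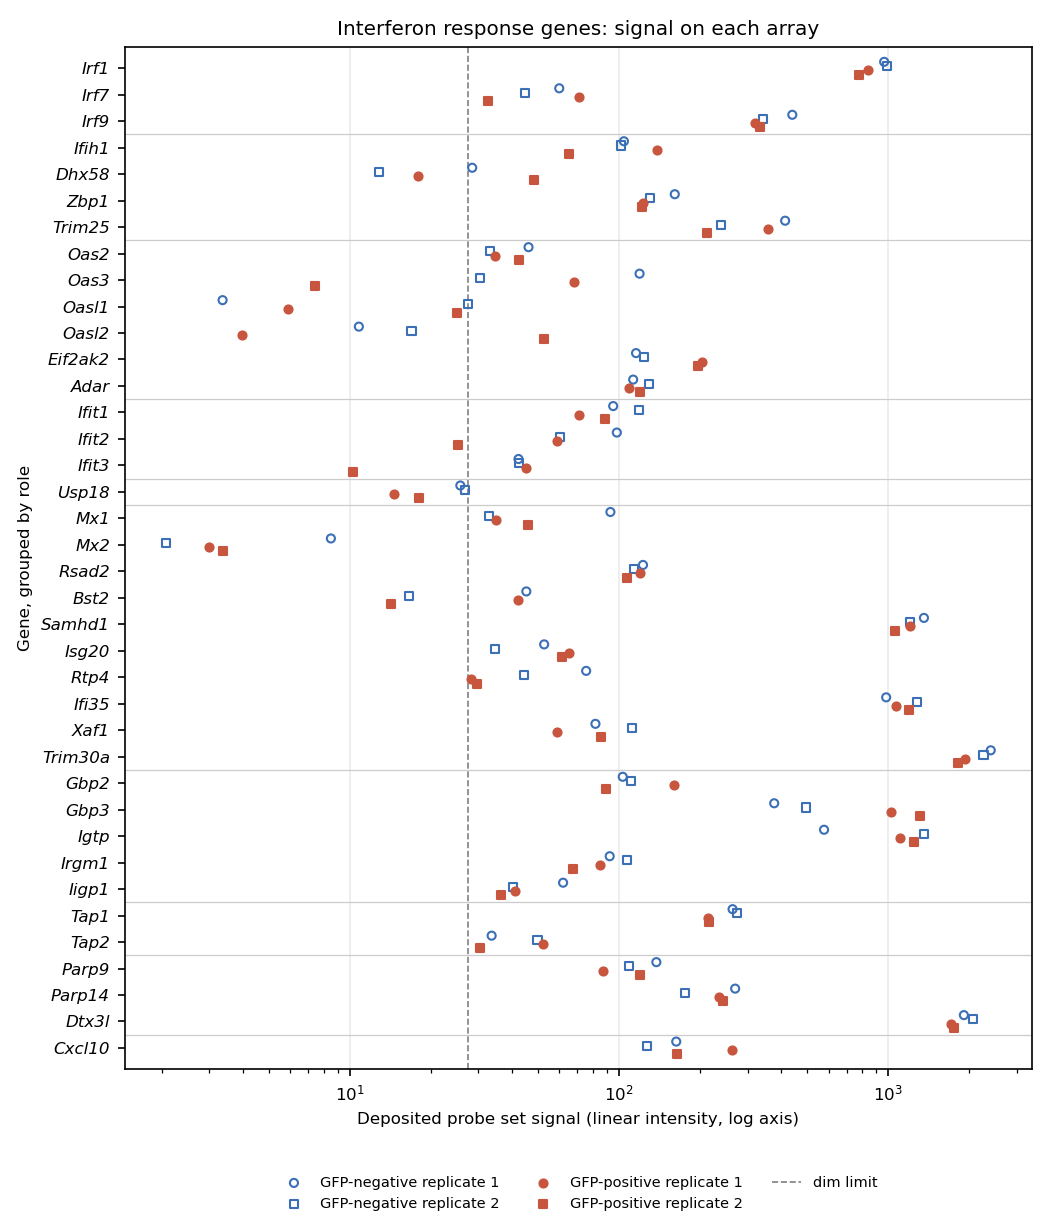
Deposited probe set signal (log axis) of the 38 members with a probe set on each of the 4 arrays, grouped by role; open blue symbols are GFP-negative, filled red symbols GFP-positive, circles replicate 1 and squares replicate 2, shifted slightly up or down within a gene so that each shows. Gbp3 is the member whose groups stand clearly apart, at 377 and 497 against 1026 and 1313, while most others lie close together or are mixed.

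Promoter windows show where the 2 DNA elements lie in these genes. RefSeq windows of 300 bases, from 250 before to 50 after each annotated gene start on build GRCm38.p6, matched 29 of the 40 members. The core of the type I element was searched as GAAA, any 2 bases, GAAA, on both strands and with overlapping matches counted. It was found in 14 of the 29 members and in 39.5% of their 38 windows, against 3.44% of all 32851 windows. The interferon gamma element was searched as TTC, any 3 bases, GAA, which reads the same on both strands. It was found in 9 members and 23.7% of their windows, against 8.3% of all windows, and 3 members held both. A match describes the letters of the window and not binding in these cells. Among tested members with a GAAA pair, 7 of 12 differences were negative (median -0.07, from -0.83 to 1.39), and among those with a window but no pair, 10 of 12 were (median -0.19, from -0.75 to 0.43).

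The windows of 6 members are written 5′ to 3′ along the gene's own strand, with the bases of each GAAA pair, or of its reverse, in capitals. Gbp3 and Gbp2 are shown because they are relatives on the same chromosome whose values differ, Igtp and Eif2ak2 because each has both elements in its window, and Ifit1 and Ifit3 as typical type I targets.
Gbp3, chr3:142559794-142560093, plus strand: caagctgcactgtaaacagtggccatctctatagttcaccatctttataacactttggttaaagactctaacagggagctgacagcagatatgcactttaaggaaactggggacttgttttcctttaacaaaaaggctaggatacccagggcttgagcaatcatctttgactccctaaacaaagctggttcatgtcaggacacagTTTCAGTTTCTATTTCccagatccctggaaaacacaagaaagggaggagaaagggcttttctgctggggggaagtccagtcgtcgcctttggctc
Gbp2, chr3:142620413-142620712, plus strand: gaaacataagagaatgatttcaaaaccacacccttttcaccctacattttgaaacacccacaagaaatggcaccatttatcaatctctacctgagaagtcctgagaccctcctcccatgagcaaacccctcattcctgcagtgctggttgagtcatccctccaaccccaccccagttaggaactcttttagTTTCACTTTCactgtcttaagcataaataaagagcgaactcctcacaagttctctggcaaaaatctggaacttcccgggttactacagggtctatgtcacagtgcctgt
Igtp, chr11:58199306-58199605, plus strand: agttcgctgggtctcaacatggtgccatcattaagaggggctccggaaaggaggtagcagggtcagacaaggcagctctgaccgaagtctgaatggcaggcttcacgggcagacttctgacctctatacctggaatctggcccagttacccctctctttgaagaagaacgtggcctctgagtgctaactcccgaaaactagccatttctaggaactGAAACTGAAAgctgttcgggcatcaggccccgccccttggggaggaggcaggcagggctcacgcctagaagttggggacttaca
Eif2ak2, chr17:78882523-78882822, minus strand: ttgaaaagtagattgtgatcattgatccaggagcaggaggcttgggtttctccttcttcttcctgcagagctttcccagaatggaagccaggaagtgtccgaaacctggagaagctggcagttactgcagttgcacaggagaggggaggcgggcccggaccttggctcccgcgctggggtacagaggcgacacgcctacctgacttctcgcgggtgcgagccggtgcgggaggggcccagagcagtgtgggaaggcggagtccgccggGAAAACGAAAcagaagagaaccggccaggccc
Ifit1, chr19:34640639-34640938, plus strand: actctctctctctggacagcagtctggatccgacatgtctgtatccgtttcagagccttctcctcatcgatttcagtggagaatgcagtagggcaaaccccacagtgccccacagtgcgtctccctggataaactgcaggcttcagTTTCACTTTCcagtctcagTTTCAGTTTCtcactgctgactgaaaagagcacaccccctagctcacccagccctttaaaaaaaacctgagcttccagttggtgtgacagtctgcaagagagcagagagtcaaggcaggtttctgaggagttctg
Ifit3, chr19:34583279-34583578, plus strand: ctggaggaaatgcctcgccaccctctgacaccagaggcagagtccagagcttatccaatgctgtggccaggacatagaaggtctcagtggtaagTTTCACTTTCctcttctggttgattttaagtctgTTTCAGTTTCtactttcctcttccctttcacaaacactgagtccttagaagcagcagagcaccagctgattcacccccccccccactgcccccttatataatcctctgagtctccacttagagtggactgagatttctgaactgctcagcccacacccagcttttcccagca

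In Gbp3 the pairs overlap and span bases -45 to -30, counted from the gene start, and in Gbp2 a single pair spans -59 to -50. In Igtp the pair lies at -34 to -25 and a TTC and GAA element at -45 to -37, side by side. In Eif2ak2 the pair lies after the gene start, at 18 to 27. Ifit1 has its pairs at -104 to -95 and -85 to -76, and Ifit3 at -156 to -147 and -122 to -113. Gbp3 and Gbp2, which both hold a GAAA pair, had log2 differences of 1.39 and 0.15, and no test related the elements to the values.

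The interferon-inducible GTPases were the group with the widest spread. These proteins gather on the membranes of vacuoles that hold microbes and are mainly targets of interferon gamma. Gbp3 read 377 and 497 in GFP-negative cells and 1026 and 1313 in GFP-positive cells, so both positive arrays lay far above both negative ones. The gene had only 1 probe set with a single symbol, so no other probe set could be compared. Its group means were 437 ± 84.6 and 1170 ± 203 (SD, n = 2 each), and its log2 difference was 1.39 (95% interval 0.76 to 2.02). Within the replicate numbers it was 1.41 and 1.37, nearly the same. The limma adjusted p of 0.167 became 0.0191 with a pseudocount of 64 and 0.00712 with trend and robust variance settings, so the call depends on these settings, and the difference lay between 1.08 and 1.58 over all alternatives.

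Gbp2, its relative, had signals of 103 and 110 against 160 and 89.1, so its GFP-positive arrays lay on both sides of the GFP-negative ones. Its log2 difference was 0.15 (-0.59 to 0.89). The probe set used for Gbp2 carries the suffix x, which Affymetrix gives to probes that can also bind other transcripts, and guanylate-binding proteins are close relatives, so the split between them is uncertain. A second Gbp2 probe set without that suffix gave a difference of 0.14. Igtp, an immunity-related GTPase, had signals of 577 and 1358 against 1103 and 1243. The difference of 0.39 (-0.63 to 1.42) came from the replicate 1 arrays, at 0.91, and was -0.13 between the replicate 2 arrays, and it was -0.21 without GFP-negative replicate 1. Irgm1, a regulator of the same family, had signals of 92.2 and 107 against 84.7 and 67.2 with a difference of -0.34, and Iigp1, an effector that coats parasite vacuoles, of 61.9 and 40.3 against 40.9 and 36.4 with a difference of -0.28. The groups of Irgm1 did not overlap, and those of Iigp1, Igtp and Gbp2 did.

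Among enzymes that act on double-stranded RNA, Eif2ak2 had the largest positive difference, second among all tested members to that of Gbp3. It encodes protein kinase R, which halts translation when it meets such RNA. It read 116 and 124 in GFP-negative cells and 203 and 196 in GFP-positive cells, with means of 120 ± 5.65 and 199 ± 5.38 (SD, n = 2 each). The groups did not overlap, and the log2 difference was 0.67 (0.16 to 1.18), at an adjusted p of 0.269. Other probe sets of the gene did not show it: they differed by 0.05 and -0.04. Adar, which edits adenosine to inosine in double-stranded RNA, was near level at 113 and 129 against 108 and 120, a difference of -0.07, while its other probe sets differed by 0.28 and 0.47.

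The oligoadenylate synthetases, which make the messenger that turns on RNase L, were dim or variable. Oas3 had the lowest difference of all members, -0.83 (-2.66 to 0.99), from signals of 119 and 30.3 against 68.1 and 7.43. Both replicate 1 arrays were above both replicate 2 arrays, so the spread between replicate numbers was wider than that between the groups, and without GFP-positive replicate 2 the difference was 0.09. Oas2 had signals of 46.1 and 33.2 against 34.5 and 42.6, with overlapping groups. The related genes Oasl1 and Oasl2 were dim, with signals from 3.36 to 27.5 and from 3.98 to 52.4.

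The IFIT proteins bind foreign RNA at its end and are among the most strongly induced targets of type I interferon. All 3 had negative differences and modest signals. Ifit1 stood at 95.03 and 119 in GFP-negative cells and at 70.9 and 88.4 in GFP-positive cells. Its difference was -0.36 (-0.94 to 0.22), and -0.35 and -0.37 within the replicate numbers. Ifit2 stood at 98.0 and 60.2 against 58.8 and 25.1, a difference of -0.75 (-1.66 to 0.16), which was -0.32 without GFP-positive replicate 2 and -1.18 without GFP-positive replicate 1. In both genes the groups did not overlap, by a narrow margin. Ifit3 stood at 42.3 and 42.4 against 45.1 and 10.2, so its difference of -0.54 came from GFP-positive replicate 2 and was 0.07 without that array. The adjusted p of Ifit2, the smallest of the 3, was 0.414.

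Other antiviral effectors ranged from some of the brightest to some of the dimmest members. Trim30a, which restrains inflammatory signalling, had the highest signal, at 2404 and 2260 against 1932 and 1824. Its groups did not overlap, and the difference was -0.31 (-0.82 to 0.20), with -0.31 within both replicate numbers. A second probe set of Trim30a differed by -0.11, and median scaling gave -0.63. Samhd1, which hydrolyses the nucleotides a virus needs to copy DNA, stood at 1357 and 1204 against 1206 and 1062. That is a difference of -0.17 (-0.71 to 0.36) with overlapping groups, and its other 4 probe sets differed by -0.17 to -0.52. Ifi35, a partner of the interferon-induced protein Nmi, was level at 982 and 1284 against 1071 and 1199, a difference of 0.01. That sign is not firm, since median scaling gave -0.30 and leaving out GFP-negative replicate 1 gave -0.18. Other probe sets of Ifi35 were much less bright, at 151 to 260 and 29.5 to 69.4, and differed by 0.05 and -0.24.

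Rtp4, an interferon-induced chaperone of receptors, had signals of 75.4 and 44.3 against 28.2 and 29.7. The GFP-positive values were nearly identical, just above the dim limit of about 27.3, and below both GFP-negative values. The difference was -0.72 (-1.39 to -0.05), at a limma adjusted p of 0.325. It was -0.42 without GFP-negative replicate 1 and -0.13 with the mean of probe sets. A second, dim probe set of Rtp4 differed by 0.47. Isg20, an exonuclease of RNA, went the other way without overlap, at 52.6 and 34.5 against 65.0 and 61.3, a difference of 0.43 (-0.17 to 1.03). Rsad2, which encodes viperin, was level at 123 and 113 against 120 and 107. Other probe sets of Rsad2 differed by -0.35 and, for a dim one, by -0.14. Xaf1, linked to cell death, stood at 81.6 and 111 against 58.8 and 85.9. Its difference was -0.35 with overlapping groups, and -0.02 on a second probe set. Mx1, a dynamin-like block to influenza virus, stood at 92.8 and 32.7 against 34.8 and 46.0, also overlapping, and differed by -1.10 within replicate 1 and 0.35 within replicate 2. Mx2, its relative, was at 2.07 to 8.49 on all arrays, and Bst2, which tethers budding virus, at 14.2 to 45.2.

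Sensors of foreign nucleic acid had small differences. Dhx58, a regulator of RNA sensors, was dim at 28.4 and 12.9 against 17.8 and 48.2. Ifih1, whose product MDA5 detects long double-stranded RNA, stood at 104 and 102 against 139 and 65.4, so the GFP-positive arrays bracketed the GFP-negative ones. Zbp1, a sensor that can start cell death, stood at 161 and 130 against 123 and 122, a difference of -0.21 (-0.76 to 0.33), and its second, dim probe set differed by -0.93. Trim25, a ubiquitin ligase that acts with RNA sensors, stood at 414 and 238 against 358 and 212, with a difference of -0.18 between groups and of -0.73 between replicate 2 and replicate 1. Its other probe sets differed by 0.11 and 0.18, and the mean over its probe sets by 0.04. Usp18, which takes ISG15 off proteins and damps the type I receptor, was dim at 25.7 and 26.8 against 14.6 and 18.1, without overlap.

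The transcription factors, the peptide transporter and the ADP-ribosylation genes had small differences, all negative but that of Parp14. Irf1, the early factor of the interferon gamma response, stood at 966 and 988 against 838 and 781, with a difference of -0.27 (-0.78 to 0.24). Irf9, the DNA-binding part of the type I complex, stood at 440 and 342 against 319 and 335, a difference of -0.24. Groups did not overlap in either gene, though in Irf9 they nearly met, at 335 against 342. Irf9 differed by -0.03 within replicate 2 and by -0.06 without GFP-negative replicate 1. Irf7, which amplifies type I interferon genes, stood at 59.9 and 44.6 against 70.9 and 32.6. Tap1, a chain of the transporter that carries peptides to class I molecules, stood at 264 and 273 against 213 and 215, tight in both groups, with a difference of -0.31 (-0.81 to 0.20). Its partner Tap2 was much dimmer and level, at 33.6 and 49.7 against 51.9 and 30.4.

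Dtx3l, a ubiquitin ligase that works in a complex with Parp9, stood at 1910 and 2058 against 1717 and 1748, a difference of -0.19 (-0.70 to 0.32) without overlap. A second bright probe set of Dtx3l differed by -0.37. Parp9 stood at 137 and 109 against 87.1 and 120 (difference -0.23) and Parp14, another ADP-ribosyltransferase, at 270 and 176 against 235 and 243 (difference 0.12), both with overlap. The second probe set of Parp14 differed by -0.13. Cxcl10, a chemokine that draws Cxcr3-bearing T cells, stood at 163 and 127 against 264 and 164. Its groups touched but did not overlap, at 163.0 and 164.0, and the difference was 0.49 (-0.24 to 1.21).

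**Figure D2:**
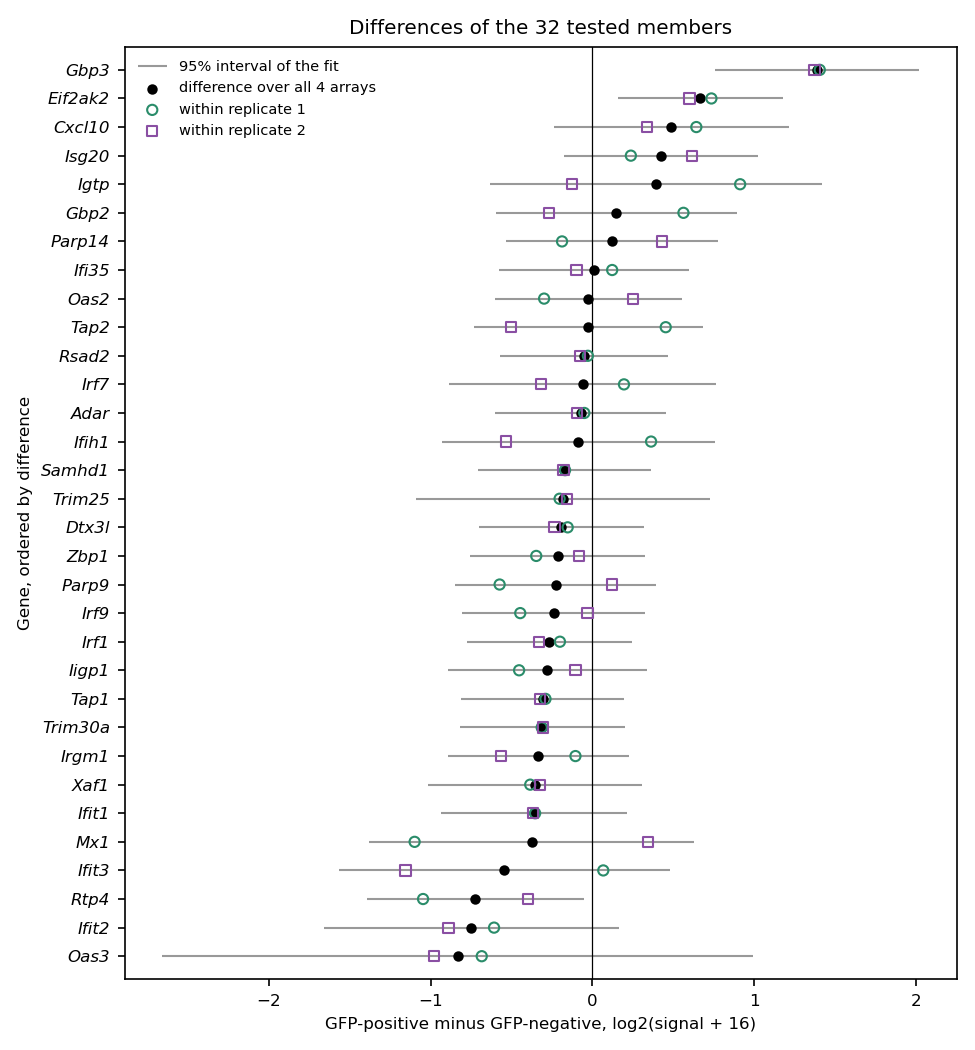
GFP-positive minus GFP-negative difference on the log2(signal + 16) scale for the 32 tested members, ordered by size; black points are the difference over all 4 arrays, grey lines its 95% interval, green circles the difference within replicate 1 and purple squares within replicate 2. Intervals of Gbp3, Eif2ak2 and Rtp4 leave out 0 before any adjustment, and 11 members have differences of opposite sign in the 2 replicate numbers.

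Within replicate 1 the median of the 32 tested members was -0.18, with 21 negative, and within replicate 2 it was -0.17, with 24 negative. The medians over all tested genes were 0.07 and 0.06. For single members the replicate numbers often disagreed: 11 of 32 had opposite signs, as did 4356 of 12252 genes. The replicate number also split the arrays in its own right, since Xist, expressed in females, read 4172 and 4313 in both replicate 1 samples but 55.1 and 112 in both replicate 2 samples, and the Y-linked Eif2s3y read 18.9 and 5.08 but 2329 and 2177. In 17 of 32 members, or 53.1%, the mean difference between numbers was larger than that between the sorted groups, where 41.3% of all genes had this. Both replicate 2 arrays were below both replicate 1 arrays in 7 members, namely Ifih1, Iigp1, Irf7, Oas3, Rsad2, Samhd1 and Trim25. They were above in 4, namely Adar, Ifi35, Igtp and Xaf1. Shares over all genes were 15.1% below and 16.1% above.

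The 4 arrays did not contribute evenly. GFP-positive replicate 2 was the lowest of the 4 arrays for 15 of 32 members (46.9%) and the highest for 1, where 21.3% of all genes were lowest and 27.1% highest there. GFP-negative replicate 1 was the highest for 14 members (43.8%), against 20.8% of all genes. Without GFP-positive replicate 2 there were 18 negative and 14 positive members with a median of -0.11, and without GFP-negative replicate 1 there were 22 and 10 with a median of -0.08. Without GFP-negative replicate 2 or GFP-positive replicate 1 the median was -0.22 and -0.23.

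Markers of other cells also differed between the arrays. The identity genes of CD4 T cells (6 of 7 listed) summed to 13301 and 12771 on the GFP-negative and to 13134 and 11176 on the GFP-positive arrays. Cd3d and Cd3e were lower and Cd2 higher in GFP-positive cells without overlap, and Cd3g, Cd4 and Cd5 overlapped. The 10 macrophage and monocyte markers summed to 195 and 354 on the GFP-negative and to 295 and 1419 on the GFP-positive arrays. On GFP-positive replicate 2, C1qb stood at 700 and Csf1r at 164. Csf1r, Cd68, Fcgr3 and the dim Itgam and C1qa were higher in GFP-positive cells without overlap. The groups of Lyz2, Cd14, Adgre1, C1qb and Clec7a overlapped. The 8 epithelial markers summed to 675 and 651 against 1872 and 622. Epcam, at 72.3 and 42.5 against 246 and 175, and Krt18 were higher in GFP-positive cells without overlap. The groups of Krt8, Krt20, Muc2, Cdh1, Lgals4 and Fabp2 overlapped, with Cdh1 at 122 and 129 against 424 and 63.9. Plasmacytoid dendritic cells, a main source of type I interferon, had Siglech at 24.2 and 25.6 against 9.90 and 67.9 and Tcf4 at 116 and 216 against 185 and 167, both overlapping. Sums of dendritic cell markers (4 of 4) were 208 and 188 against 345 and 373, with Zbtb46 at 135 and 119 against 220 and 278, and sums of B cell markers (5 of 6) were 190 and 230 against 288 and 281. Both sums were higher in GFP-positive cells without overlap, a position that 28.7% of all tested genes had singly. Of the single dendritic and B cell markers, Itgax, Xcr1, Zbtb46 and Ms4a1 had it, while the groups of Flt3, Cd79a, Cd79b, Cd22 and Blk overlapped. Plasma cell markers (3 of 3, mostly Jchain) summed to 3913 to 6394, and those of stroma and endothelium (5 of 5) to 402 to 1016, with overlap. Singly, the plasma cell markers Mzb1 and Derl3 were higher in GFP-positive cells without overlap, and Pecam1 was lower without overlap. The groups of Jchain, Col1a1, Col1a2, Col3a1 and Dcn overlapped. The NK cell gene Ncr1 was at 2.28 to 12.6. Of the CD8 genes, Cd8a stood at 32.5 and 42.5 against 52.1 and 60.2, without overlap, and the dim Cd8b1 at 44.3 and 19.0 against 12.3 and 24.4. The part of these cells in the interferon genes was not tested. The difference of Gbp3 was 1.22 without GFP-positive replicate 2 and 1.57 without GFP-positive replicate 1. Leaving out 1 array cannot separate other cells from the sort, since several of their markers or marker sums were higher on both GFP-positive arrays. They include Epcam, the dendritic and B cell sums, and single macrophage and plasma cell markers such as Csf1r, Fcgr3 and Mzb1.

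**Figure D3:**
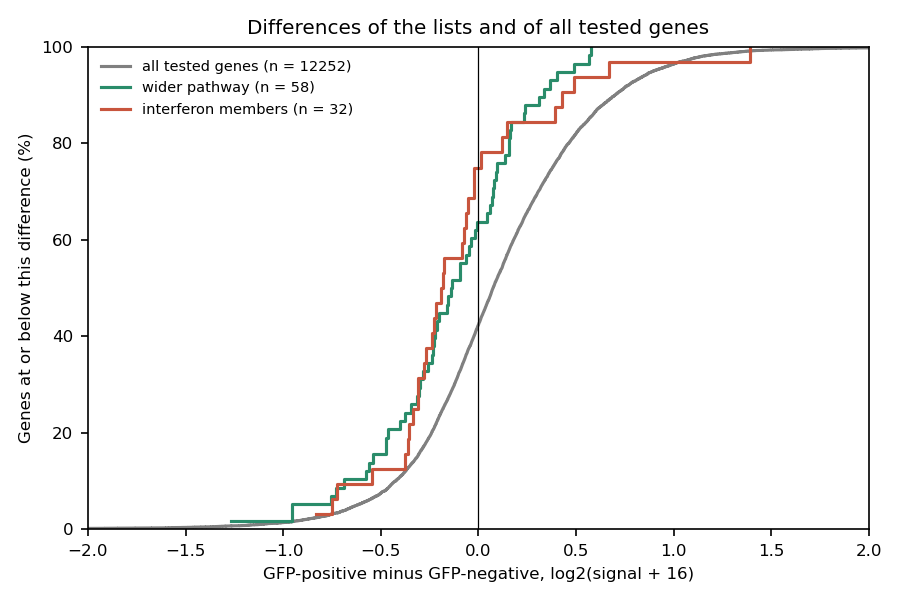
Cumulative share of genes (%) at or below each GFP-positive minus GFP-negative difference on the log2(signal + 16) scale, for the 32 tested members (red), the 58 tested genes of the wider interferon pathway (green) and all 12252 tested genes (grey), with the axis drawn from -2 to 2 although all genes run from -3.68 to 3.96. At 0 the members have reached 75.0%, the wider pathway 63.8% and all genes 42.3%, and the single member far to the right is Gbp3.

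The wider pathway was taken from a list of 73 further genes, of which 66 had a probe set and 58 were tested. Limma called 0 of the 58 after adjustment over all genes, and at an unadjusted p under 0.05 there were 2 higher and 6 lower ones, beside 10.2% and 4.37% of all genes (0 and 18 after median scaling, beside 3.999% and 13.9%). The median difference was -0.14, 37 were negative and 21 positive, and 19 lay below and 7 above without overlap, beside 18.7% and 28.7% of all genes. At 2-fold or more without overlap there were 0 higher and 1 lower of the 58, beside 3.4% and 1.31% of all genes. The lower gene was Ifng itself, which encodes interferon gamma. It read 1457 and 770 in GFP-negative cells and 439 and 423 in GFP-positive cells, a difference of -1.27 (-2.10 to -0.43) with an adjusted p of 0.239. The type I interferon genes Ifnb1 and Ifna4 were at 21.9 to 46.8 and 6.31 to 15.7.

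No receptor chain passed the test. Ifngr1, the ligand-binding chain for interferon gamma, stood at 943 and 1109 against 1211 and 1198, a difference of 0.23 (-0.30 to 0.76) without overlap. Ifngr2 stood at 115 and 159 against 147 and 137, a difference of 0.06 (-0.53 to 0.65). For type I interferon, Ifnar1 stood at 728 and 496 against 633 and 692 (0.14, -0.51 to 0.78), and Ifnar2 at 115 and 155 against 126 and 99.0 (-0.23, -0.85 to 0.39). Ifnlr1, the receptor chain for type III interferon, was dim, at 5.38 to 69.2.

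Behind the receptors, Jak1 stood at 1457 and 1376 against 1073 and 1105, a difference of -0.37, and Jak2 at 4238 and 4229 against 5108 and 4421, a difference of 0.17, both without overlap. Stat2, a part of the type I complex, was dim at 25.8 and 13.3 against 37.7 and 34.4. Socs1, the feedback inhibitor of these kinases, was dim on all arrays, at 3.05 to 21.2. Among other factors of the Irf family, Irf2 and Irf3 were lower without overlap at differences of -0.21 and -0.31, and Irf5 and Irf8 overlapped at 0.16 and 0.09. Of 7 tested sensors and adaptors, 5 had negative differences.

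Among further induced genes, the 29 tested ones had a median of -0.22, with 12 below and 5 above without overlap, beside 18.7% and 28.7% of all genes. Gbp7, another guanylate-binding protein, stood at 2211 and 1868 against 3202 and 2896, a difference of 0.58 (0.04 to 1.12), and Irgm2 at 214 and 152 against 232 and 291. Gbp6 was level, with a difference of 0.07. Ifi47, an immunity-related GTPase, was on the other side, at 497 and 436 against 319 and 295, a difference of -0.58 (-1.10 to -0.05). Ifi204, a DNA-binding protein, stood at 125 and 141 against 38.6 and 91.9, and the nuclear body genes Sp100 and Sp110 had differences of -0.73 and -0.95. Ifitm1, a membrane protein that blocks virus entry, had a difference of 0.57 and Lgals3bp of -0.76. The adjusted p of Gbp7, Ifi47, Ifi204, Sp100, Sp110, Ifitm1 and Lgals3bp ran from 0.294 to 0.335.

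Of 7 tested antigen presentation genes, 6 had negative differences, with a median of -0.20. B2m, the light chain of class I molecules, stood at 5154 and 5643 against 5767 and 4631, and Nlrc5, the activator of class I genes, at 3633 and 3806 against 3063 and 2376, a difference of -0.46 without overlap. The immunoproteasome gene Psmb9 stood at 302 and 302 against 231 and 178, a difference of -0.54 without overlap, and its partner Psmb8 at 483 and 370 against 390 and 327 with overlap.

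**Figure D4:**
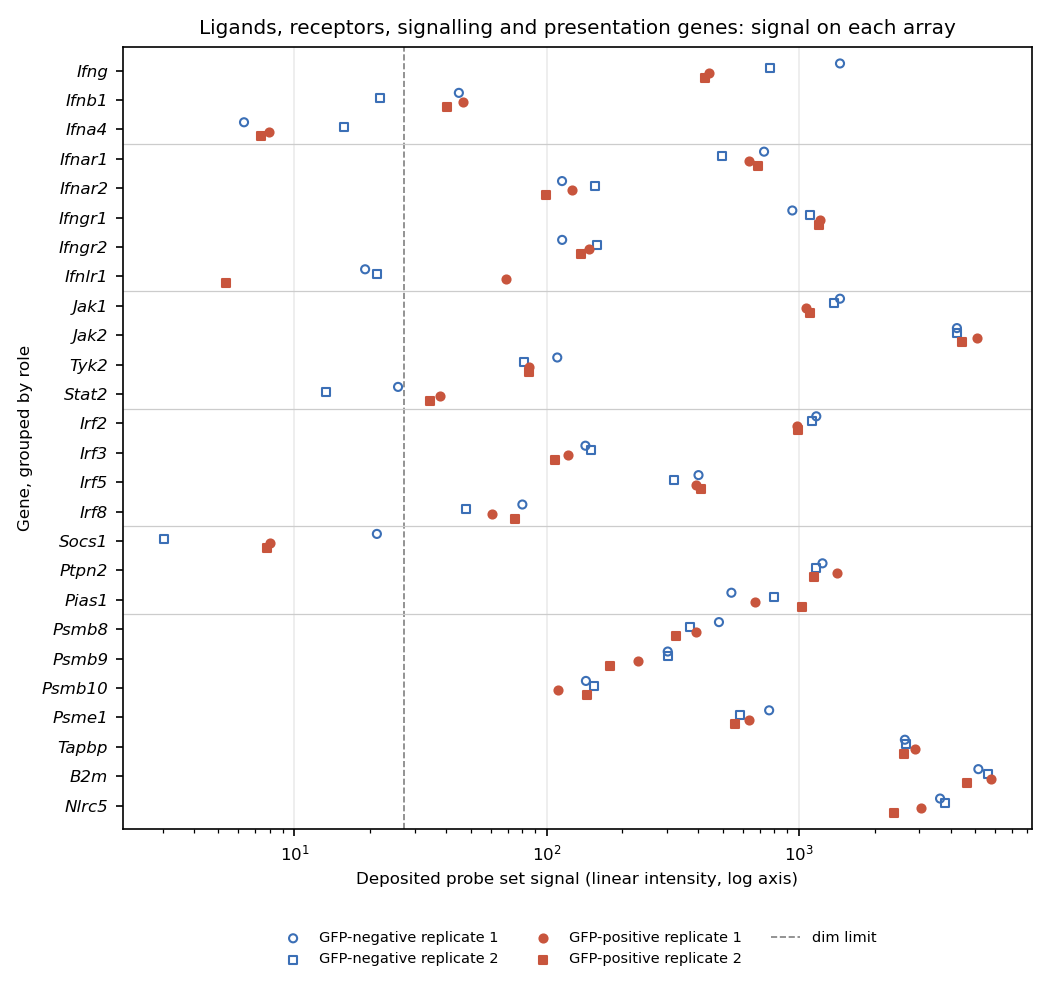
Deposited probe set signal (log axis) of interferon, receptor, kinase, STAT, IRF, inhibitor and antigen presentation genes on each of the 4 arrays, with symbols as for the members and shifted slightly within a gene. Ifng is the gene whose groups stand farthest apart among the bright ones, at 1457 and 770 against 439 and 423.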

How the data were processed

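The deposited table holds 1 intensity per probe set and array (45101 probe sets, 4 arrays). The authors' summary method is not given in the sources used here; the values are linear, and each array's mean without the lowest and highest 2% of probe sets is 150.0, as in scaling to a common target. They were used as deposited. Array medians were 36.1 to 37.0 in GFP-negative and 45.2 to 46.0 in GFP-positive samples, and the number of arrays limits the precision.

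Probe sets were named from the platform annotation: 34945 had 1 symbol, 932 several and 9211 none. Controls (64, of which 13 had a symbol) were left out. For each of 18193 genes the probe set of highest mean log2(intensity + 16) was kept, 5941 dim genes (below the 40th percentile) were left out, and limma 3.58.1 in R 4.3.3 (lmFit, eBayes) compared the groups over 12252 genes with Benjamini-Hochberg adjustment and a threshold of 0.05. The script was tested on simulated data.

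The members and lists were chosen with earlier results of these data known. By rule, array values were given for members called or 2-fold apart without overlap, the 5 brightest members, and, of the wider pathway, Ifng, the receptors, Stat2 and Socs1 (1 item of that rule is not reported here); all other array values, and the 6 promoters printed, were chosen after the values were seen. Alternatives covered normalization (quantile, cyclic loess, median scaling), pseudocounts of 1 and 64, the dim filter, the mean of probe sets, a replicate block, trend and robust variance, and leaving out each array.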

Additional observations from a re-analysis of the deposited data

How the results depend on the processing

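The median difference of the members (-0.19) was negative in each alternative tried. It was -0.22 after quantile and -0.21 after cyclic loess normalization, -0.49 after median scaling, -0.16 with a pseudocount of 64, -0.15 without the dim filter and -0.15 with the mean of probe sets. Leaving out 1 array gave -0.23 to -0.078. Median scaling moved the median of all genes from 0.07 to -0.20 and the share of negative differences from 42.3% to 66.8% of all genes and from 75% to 84.4% of members. The number of members called was 1 (Gbp3) with a pseudocount of 64 and 1 (Gbp3) with trend and robust settings, which called 175 and 240 of all genes. Gpr15 was then called too, at 1.76 (adjusted p 0.00274) and 2.02 (adjusted p 0.00107). Members 2-fold lower without overlap numbered 0 to 3 when 1 array was left out, which leaves a single array in 1 group. There were 3 without GFP-negative replicate 2 and 3 without GFP-positive replicate 1, beside 1.65% and 2.02% of all genes. Without GFP-negative replicate 1 or GFP-positive replicate 2 there were 0, beside 1.88% and 2.465% of all genes. Ifi35 (0.01) was -0.30 after median scaling, -0.061 with the mean of probe sets and -0.18 to 0.20 without 1 array. Igtp (0.39) ranged from -0.21 to 0.9998 without 1 array. Same-numbered arrays are not stated to share animals, and their deviations correlated at 0.198. With the replicate block 0 members and 0 of all genes were called, and Gbp3 had a difference of 1.39 and a limma adjusted p of 0.126. At an unadjusted p under 0.05 the block gave 3 lower and 2 higher members, beside 5.11% and 12.3% of all genes.

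With 2 arrays a group, dim members are limited by signal near background, and a p that misses the threshold does not show equal levels.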
